A study of Mus musculus with 10 samples.

Results

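The miR-30 family is described here by 8 mature arms: miR-30a-5p, miR-30b-5p, miR-30c-5p and miR-30e-5p, and the opposite arms miR-30a-3p, miR-30c-1-3p, miR-30c-2-3p and miR-30e-3p. They were taken by name from the deposited miRNA tables, and all 8 were listed for both vesicle sources, out of 721 miRNAs in all (679 for brown fat and 436 for plasma). miR-30d-5p was left out by that choice and serves only as a comparison. The libraries hold small RNA of small extracellular vesicles, membrane particles shed by cells, from C57BL/6J mice. The groups were Exe BAT (3), Sed BAT (3), Exe plasma (2) and Sed plasma (2), where BAT is brown adipose tissue. The series sets mice before and after exercise side by side, and Exe and Sed are read as trained and untrained on that ground. The labels give sessions of 90 min for 4 weeks to every sample, Sed included, and name no age or sex. The plasma descriptions carry the tag wt, which the labels do not explain and which may stand for wild type. The BAT descriptions carry no such tag, and no other genotype is named. No label ties the replicates to different animals, and the p-values therefore reflect library-to-library spread only, part or all of which may be technical.

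A miRNA hairpin gives a 5p and a 3p arm, and the arm loaded into Argonaute represses messenger RNAs that pair with its seed, bases 2 to 8. The 5p arms of the miR-30 family share their seed and are the usual guide strands, while the 3p arms mostly have other seeds and are usually the rarer strand. In mouse brown fat miR-30b and miR-30c are known to promote thermogenic genes by repressing the corepressor RIP140, and in human fat precursors miR-30a and miR-30d promote fat cell formation. miR-30 members are also known regulators of autophagy and of connective tissue growth factor in the heart.

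RefSeq (GRCm38.p6) gave the mature sequence of 7 of the 8 arms, all except miR-30b-5p. They are printed 5′ to 3′ with the seed in capitals, because seed sharing sets the groups in which the arms are described and because 2 pairs of arms differ by a single base.
miR-30a-5p: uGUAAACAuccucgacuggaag
miR-30e-5p: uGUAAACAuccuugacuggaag
miR-30c-5p: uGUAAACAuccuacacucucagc
miR-30a-3p: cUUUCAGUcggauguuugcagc
miR-30e-3p: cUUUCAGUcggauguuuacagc
miR-30c-1-3p: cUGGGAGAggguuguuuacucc
miR-30c-2-3p: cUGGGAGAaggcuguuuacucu

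The printed 5p arms had 1 seed. Among the 605 of 721 listed miRNAs with a sequence, the only other one with it was miR-384-5p. miR-30b-5p and miR-30d-5p were not compared, so how few bases set them apart from the printed arms was not examined. The 3p arms fell into 2 seed groups, miR-30a-3p with miR-30e-3p and miR-30c-1-3p with miR-30c-2-3p. Counted from 1 at the 5′ end, miR-30a-5p and miR-30e-5p differ only by C13U, and miR-30a-3p and miR-30e-3p only by G18A. Reads of these pairs could be exchanged by a sequencing error or a permitted mismatch, so their separate values are uncertain. miR-30c-1-3p and miR-30c-2-3p differ by G9A, U12C and C22U. miR-30a-5p and miR-30c-5p share their first 12 bases and differ at 5 of the 22 positions compared.

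The arms come from several loci, and miR-30c-5p is made identically by 2 of them. Mir30a (chr1:23272269-23272339, plus strand) lies 19361 bases from Mir30c-2 (chr1:23291701-23291784, plus strand), which overlaps an exon of the long noncoding RNA Gm27028. Mir30c-1 (chr4:120769534-120769622, minus strand) lies 2983 bases from Mir30e (chr4:120772606-120772697, minus strand), and both are in an intron of Nfyc, a subunit gene of the transcription factor NF-Y. Mir30b (chr15:68337415-68337510) overlaps an exon of the noncoding RNA Gm26621 and lies 3697 bases from Mir30d. Coordinates are GRCm38, with genes from GENCODE M21. The Mir30a and Mir30e hairpins are printed with both arms in capitals, since the balance of their arms is compared further on.
Mir30a: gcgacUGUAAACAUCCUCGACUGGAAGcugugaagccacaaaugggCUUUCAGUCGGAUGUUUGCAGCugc
Mir30e: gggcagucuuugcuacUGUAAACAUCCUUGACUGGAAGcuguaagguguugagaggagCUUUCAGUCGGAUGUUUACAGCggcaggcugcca

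Depth was low for BAT and higher for plasma. BAT libraries held between 116584 and 172279 miRNA reads in Exe and between 104064 and 169345 in Sed, and plasma libraries between 1209116 and 1766070 in Exe and between 1341678 and 1798169 in Sed. As a check of tissue, 5 miRNAs of brown fat (miR-193b-3p, miR-365-3p, miR-455-3p, miR-455-5p and miR-378a-3p) together took 22.9 to 29.8% of miRNA reads in Exe BAT vesicles and 6.55 to 22.8% in Sed BAT vesicles. The lowest, 6.55%, was Sed replicate 2, which stood apart from the other BAT libraries. Most of these reads were miR-378a-3p, at 27.1, 21.3 and 20.7% in Exe BAT libraries 1 to 3 and 16.7, 3.66 and 21.4% in Sed BAT libraries 1 to 3. The 5 did not move together. Log2 fold changes of Exe over Sed were 0.73 for miR-378a-3p, 1.17 for miR-193b-3p, 1.57 for miR-455-3p, -0.12 for miR-455-5p and -1.08 for miR-365-3p. The 6 red cell miRNAs (miR-451a, miR-144 and miR-486 arms) took 12.7 to 14.1% of reads in Exe plasma vesicles and 52.8 to 70.0% in Sed plasma vesicles. Most of this was miR-451a, at 11.1 and 13.1% in Exe plasma libraries 1 and 2 and 69.8 and 52.8% in Sed plasma libraries 1 and 2. The tested miR-486 arms went the other way without overlap, with log2 fold changes of 2.72 (miR-486a-5p), 11.9 (miR-486a-3p) and 6.83 (miR-486b-3p). That of miR-144-3p was -1.57, with overlap. The 6 leukocyte miRNAs (miR-142a arms, miR-223-3p, miR-150-5p, miR-155-5p and miR-342-3p) took 2.15 to 2.46% in Exe plasma vesicles and 0.158 to 0.211% in Sed plasma vesicles.

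In BAT vesicles the family did not move in 1 direction with exercise. miR-30e-5p fell past the threshold, an adjusted p under 0.05 in edgeR's quasi-likelihood test over all 199 miRNAs tested. miR-30c-1-3p passed it in the other direction, but had entered the test only through its Exe libraries, where it is high. All 8 arms passed the filter on low counts, and 9.55% and 13.1% of all miRNAs tested were called higher and lower (22.6% in either direction). The arms called, 1 in each direction, are close to that background, and nothing is read from their number. The log2 fold change was above 0 for 5 arms and below 0 for 3, with a median of 0.46, beside -0.06 over all miRNAs tested. At an unadjusted p under 0.05 there were 6 arms, against 38.7% of all miRNAs. Groups did not overlap for 3 arms higher and 2 lower, where 21.1% and 23.1% of all miRNAs did so. Levels are counts per 1000000 reads (CPM) on the scale of edgeR's TMM normalisation. In these bulk data, fewer vesicles of a kind and less of a miRNA per vesicle cannot be told apart.

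miR-30e-5p had 734, 1048 and 897 CPM in Exe libraries 1 to 3, against 1391, 2133 and 1626 CPM in Sed libraries 1 to 3. Every Exe library lay below every Sed library. The means were 893 ± 157 CPM in Exe and 1717 ± 379 CPM in Sed (SD, n = 3 each), from 84 to 161 reads per Exe library and 178 to 283 per Sed library. The log2 fold change was -0.94 ± 0.26 (SE, edgeR adjusted p = 0.0306). The call ended with upper-quartile scaling (-0.82, adjusted p = 0.0691), with a mean of 50 counts required (-0.82, adjusted p = 0.0728), with totals implied by the deposited RPM (-0.69, adjusted p = 0.239) and when any library other than Sed 1 was left out (adjusted p between 0.0516 and 0.123).

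miR-30a-5p, which differs from it by the single base above, had 1766, 2740 and 2383 CPM in the Exe libraries, against 3339, 3980 and 3883 CPM in the Sed libraries. Its groups did not overlap either. The log2 fold change of -0.70 ± 0.24 did not pass the threshold (adjusted p = 0.0613). Because reads of the pair could be exchanged, their counts were also summed, which gave a log2 fold change of -0.79 ± 0.26 and an adjusted p of 0.0557.

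miR-30b-5p and miR-30c-5p, the arms with the RIP140 role named above, led the family in every Exe BAT library. In Sed BAT libraries 1 and 3 miR-30a-5p stood above miR-30c-5p. miR-30b-5p had 8884, 9172 and 6996 CPM in the Exe libraries, against 5403, 6934 and 4778 CPM in the Sed libraries. The highest Sed library lay just under the lowest Exe library, and the log2 fold change of 0.55 ± 0.23 did not pass (adjusted p = 0.115). miR-30c-5p had 7703, 8482 and 6623 CPM in the Exe libraries, against 2609, 6640 and 2933 CPM in the Sed libraries. The groups overlapped through Sed replicate 2 alone, which lay just above Exe replicate 3. The log2 fold change was 0.90 ± 0.35 (adjusted p = 0.0888), and without Sed replicate 2 it was 1.52 ± 0.25 (adjusted p = 5.76e-05), while that of miR-30b-5p was 0.78 (adjusted p = 0.0159). miR-30c-5p also passed with no filter (0.89, adjusted p = 0.0350) and with totals implied by RPM (1.13, adjusted p = 0.0287). Sed replicate 2 is the library with 6.55% of brown fat miRNAs, and the part of this in the result was not tested.

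**Figure D1:**
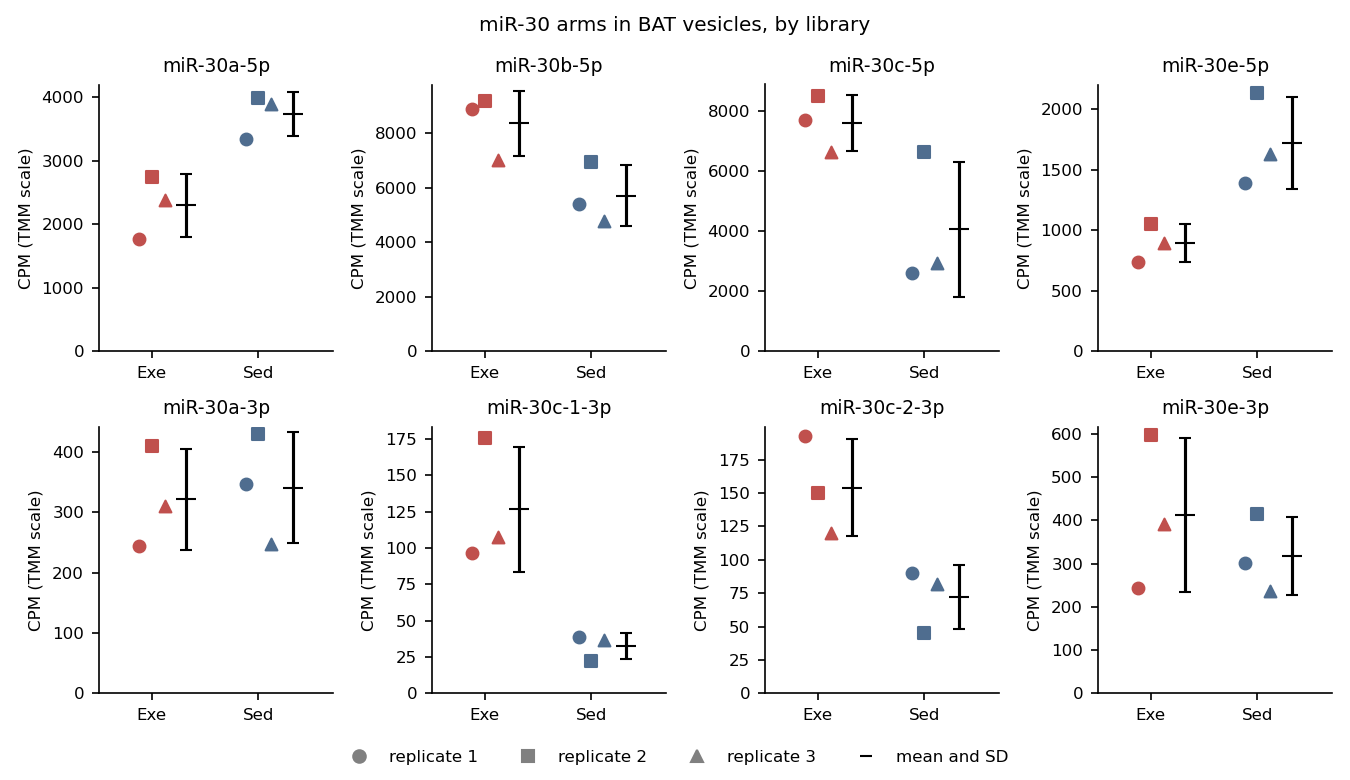
CPM (TMM scale) of the 8 miR-30 arms in each BAT vesicle library, with Exe left of Sed in every panel; symbols mark replicates and bars the mean and SD (n = 3). miR-30a-5p and miR-30e-5p are lower in every Exe library, miR-30b-5p, miR-30c-1-3p and miR-30c-2-3p are higher in every Exe library, and the other arms overlap.

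Among the 3p arms, the miR-30c arms lay higher in every Exe library than in any Sed library, at low depth. miR-30c-1-3p had 11, 27 and 17 reads in the Exe libraries (96.2, 176 and 107 CPM), against 6, 3 and 4 reads in the Sed libraries (38.5, 22.6 and 36.5 CPM). It passed the filter only through its Exe libraries, all of which were above every Sed library. The log2 fold change was 1.94 ± 0.43 (adjusted p = 0.0139), which that entry into the test favours. With no filter, where entry did not depend on the Exe libraries, it was 1.94 (adjusted p = 0.00426). That fit reuses the same reads, so it is not read as support. Without Exe replicate 2 the call ended (1.64, adjusted p = 0.0545). miR-30c-2-3p, the arm with the same seed from the other locus, had 192, 150 and 120 CPM in the Exe libraries, against 89.7, 45.2 and 82.2 CPM in the Sed libraries. Its groups did not overlap, and its log2 fold change of 1.06 ± 0.37 did not pass (adjusted p = 0.0630), though it did with upper-quartile scaling (1.22, adjusted p = 0.0327) and with totals implied by RPM (1.24, adjusted p = 0.0459). Sed replicate 2, with 6 reads of miR-30c-2-3p, lay under the filter's count cut-off, so entry of this arm also needed an Exe library.

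The pair of 3p arms that differ by a single base showed overlapping groups. miR-30a-3p had 28, 63 and 49 reads in the Exe libraries, against 54, 57 and 27 reads in the Sed libraries, with a log2 fold change of -0.08 ± 0.30 (adjusted p = 0.832). miR-30e-3p had 28, 92 and 62 reads in the Exe libraries, against 47, 55 and 26 reads in the Sed libraries, with a log2 fold change of 0.38 ± 0.36 (adjusted p = 0.462). For comparison, miR-30d-5p had a log2 fold change of 0.08 ± 0.21 (adjusted p = 0.785).

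The mature arms are of nearly equal length, so their levels are set in order as read counts; any difference between arms in capture during library making was not tested. In Exe BAT vesicles it ran miR-30b-5p (8351 CPM), miR-30c-5p (7603), miR-30a-5p (2296), miR-30e-5p (893), miR-30e-3p (412), miR-30a-3p (322), miR-30c-2-3p (154) and miR-30c-1-3p (126). Neighbours overlapped between libraries for miR-30b-5p with miR-30c-5p, miR-30e-3p with miR-30a-3p, and miR-30c-2-3p with miR-30c-1-3p, and the others did not. In Sed BAT vesicles the same 4 arms led, by their means, with miR-30b-5p at 5705 CPM, miR-30c-5p at 4060 CPM, miR-30a-5p at 3734 CPM and miR-30e-5p at 1717 CPM. There miR-30c-5p overlapped both miR-30b-5p and miR-30a-5p. The 3p arms followed with miR-30a-3p at 341 CPM and miR-30e-3p at 318 CPM, which overlapped, then miR-30c-2-3p at 72.4 CPM and miR-30c-1-3p at 32.5 CPM, which did not.

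**Figure D2:**
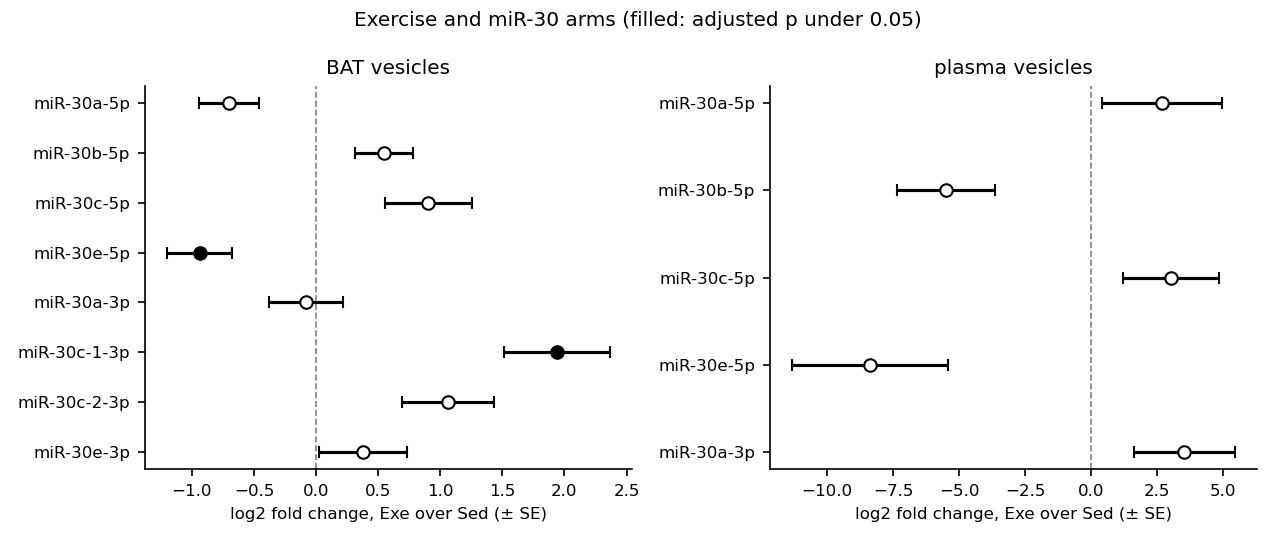
Log2 fold change of Exe over Sed with its SE for the arms tested in BAT vesicles (left, 8 arms) and plasma vesicles (right, 5 arms), from edgeR; filled points have an adjusted p under 0.05. miR-30e-5p (-0.94) and miR-30c-1-3p (1.94) are filled in BAT vesicles and no point is filled in plasma vesicles.

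The summed reads of the family overlapped between groups, while the shares of miR-30a-5p and miR-30e-5p within the 5p reads did not. The 4 5p arms together took 1.87, 2.07 and 1.55% of miRNA reads in the Exe BAT libraries, against 1.17, 2.51 and 1.25% in the Sed BAT libraries, each within 0.0951 points (95% Wilson interval, counting error only). The Sed libraries enclosed the Exe libraries, and the means of 1.83% ± 0.263 in Exe and 1.64% ± 0.751 in Sed (SD, n = 3 each) gave p = 0.8 in a two-sided exact permutation test, where 0.1 is the smallest possible. The 4 3p arms together took 0.0969% ± 0.0282 in Exe and 0.0815% ± 0.031 in Sed (exact permutation p = 0.5). Adjusted over the 5 such tests of sums and arm ratios, these p-values were 1 and 0.833.

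Within the 5p reads, miR-30a-5p made up 9.25, 12.8 and 14.1% in the Exe BAT libraries, against 26.2, 20.2 and 29.4% in the Sed BAT libraries. miR-30e-5p made up 3.85, 4.89 and 5.31% in the Exe BAT libraries, against 10.9, 10.8 and 12.3% in the Sed BAT libraries. Both shares were lower in every Exe library, Sed replicate 2 included. miR-30b-5p and miR-30c-5p together made up 86.9, 82.3 and 80.6% in the Exe BAT libraries, against 62.9, 69.0 and 58.3% in the Sed BAT libraries. That grouping was chosen after the values were seen, so it was not tested.

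**Figure D3:**
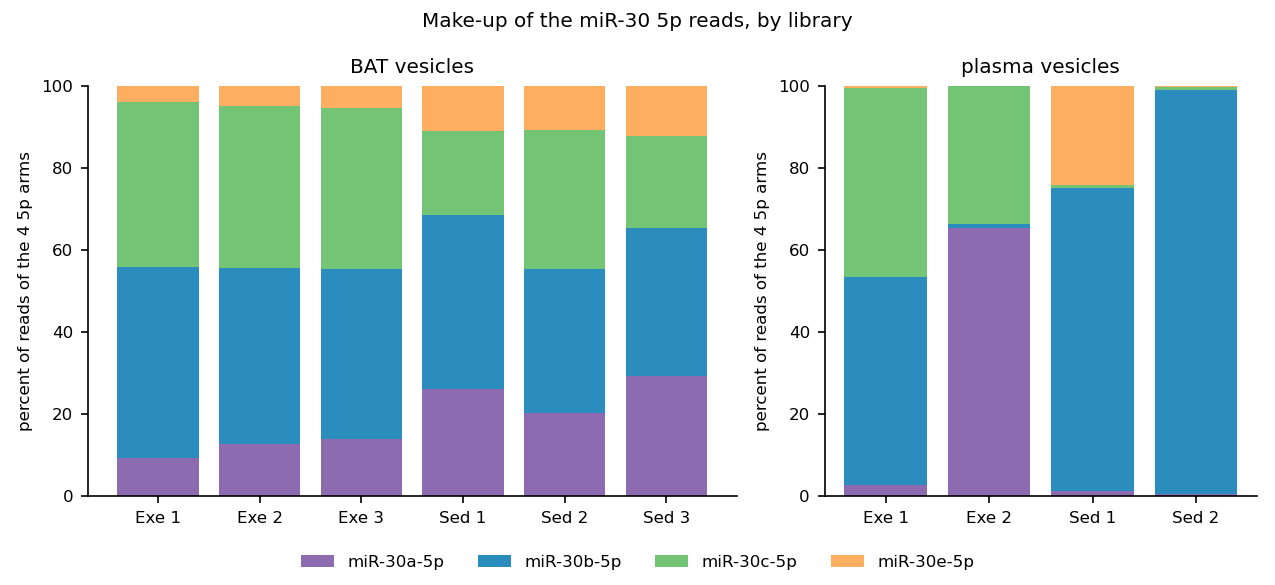
Percent of the reads of the 4 5p arms held by each arm, 1 bar per library, in BAT vesicles (left) and plasma vesicles (right), with Exe bars left of Sed bars. In BAT vesicles miR-30b-5p and miR-30c-5p hold 80.6 to 86.9% in Exe and 58.3 to 69.0% in Sed, and in plasma vesicles the leading arm changes between replicates of Exe.

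The balance of the 2 arms of a hairpin does not depend on how libraries are scaled. For miR-30e, the 3p arm made up 25, 36.4 and 30.4% of reads of both arms in the Exe BAT libraries, against 17.8, 16.3 and 12.7% in the Sed BAT libraries. For miR-30a it made up 12.2, 13.0 and 11.5% in the Exe BAT libraries, against 9.39, 9.74 and 5.97% in the Sed BAT libraries. Neither pair of groups overlapped. The log2 ratio of 3p to 5p reads, with 0.5 added to each, differed by 1.25 for miR-30e and by 0.64 for miR-30a, Exe minus Sed. Each gave an exact permutation p = 0.1, two-sided, the smallest that 3 against 3 libraries allow, and 0.25 after adjustment over 5 tests, so neither could pass. Since the arms of miR-30a and miR-30e each differ by a single base, these ratios share the uncertainty of the pairs.

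For miR-30c, both 3p arms together made up 3.61, 3.70 and 3.32% of reads in the Exe BAT libraries, against 4.68, 1.01 and 3.89% in the Sed BAT libraries. The Exe libraries lay between Sed replicate 2, the lowest, and the other Sed libraries. The log2 ratio differed by 0.39 (exact permutation p = 1).

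**Figure D4:**
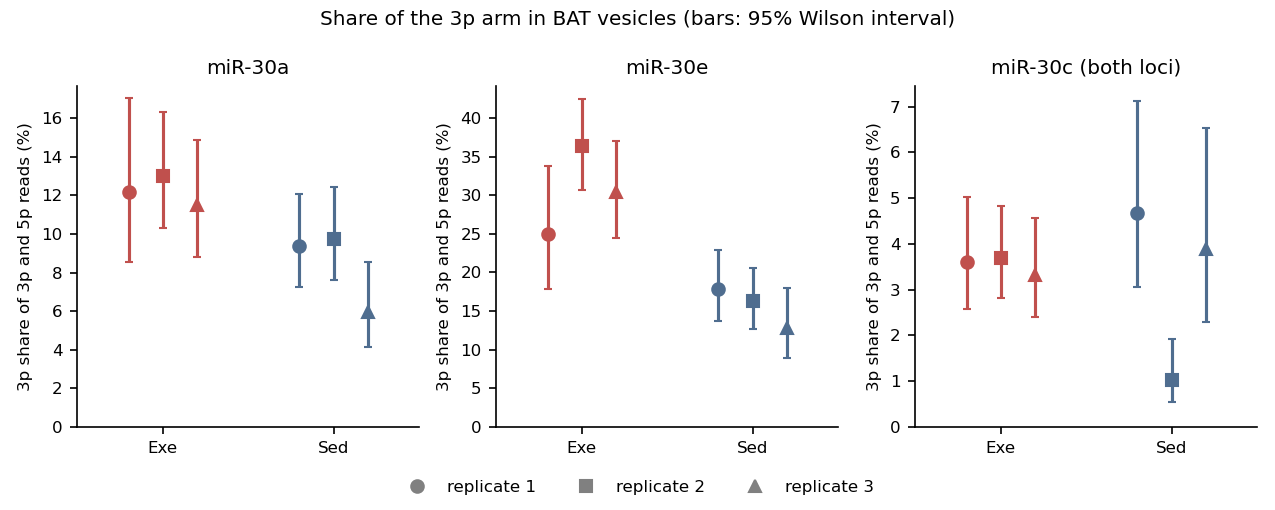
Share of the 3p arm in the reads of both arms of miR-30a, miR-30e and miR-30c (both loci) in each BAT vesicle library, Exe left of Sed; bars are 95% Wilson intervals, and the vertical axes differ. The Exe libraries lie above the Sed libraries for miR-30a and miR-30e, and Sed replicate 2 is lowest for miR-30c.

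Across the 6 BAT libraries the arms varied together in pairs. Pearson's r of log2(CPM + 1) was 0.96 for miR-30a-5p with miR-30e-5p, 0.93 for miR-30b-5p with miR-30c-5p, 0.88 for miR-30c-1-3p with miR-30c-2-3p and 0.85 for miR-30a-3p with miR-30e-3p. miR-30a-5p and miR-30c-5p had r = -0.57, where miR-30c-5p reads may come from Mir30c-2, beside Mir30a on chromosome 1, or from Mir30c-1 on chromosome 4. The lowest r, -0.95, joined miR-30c-2-3p to miR-30e-5p. These are descriptions over libraries that share depth and group. Among 102 other miRNAs averaging 50 counts or more, the summed 5p arms were most like let-7d-3p (r = 0.91), miR-15b-5p (0.85) and miR-203-3p (0.84). The summed 3p arms were most like miR-203-3p (0.95), miR-93-5p (0.91) and miR-7a-5p (0.85).

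A list of 27 other miRNAs tied to brown fat and fat cell formation gives the setting. Of 26 tested in BAT vesicles, 4 rose (miR-193a-5p, miR-193b-3p, miR-455-3p and miR-328-3p) and 3 fell (miR-32-5p, miR-148a-3p and miR-34a-5p), with a median log2 fold change of 0.28. These counts stand beside 9.55% called higher and 13.1% called lower among all miRNAs tested, and a share near that background is no result about the list. In plasma vesicles 17 were tested and none passed edgeR's threshold, with a median of -1.10.

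In plasma vesicles no arm passed the threshold, and 0% of the 182 miRNAs tested by edgeR did. At an unadjusted p under 0.05 there were 60 (33.0%), 2 of them among the 5 arms tested, while DESeq2 called 59 miRNAs and limma-voom 40. DESeq2 called 3 arms and limma-voom none. The replicates of a group differed widely for several arms, and miR-30c-1-3p, miR-30c-2-3p and miR-30e-3p were too low to test. Groups did not overlap for 2 arms higher and 2 lower of the 5, where 28.6% and 30.8% of all miRNAs did so.

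miR-30b-5p had 280 and 13 reads in Exe plasma libraries 1 and 2 (156 and 6.96 CPM), against 2024 and 8948 reads in Sed plasma libraries 1 and 2 (2352 and 5069 CPM). Both Exe libraries lay below both Sed libraries, and the log2 fold change of -5.51 ± 1.86 did not pass with edgeR (adjusted p = 0.107). It passed with DESeq2 (-5.71, adjusted p = 0.00225). In edgeR it also passed with no filter (adjusted p = 0.0162), with a mean of 50 counts required (adjusted p = 0.0126) and without Sed plasma replicate 1 (-5.93) or 2 (-4.91), where the lone Sed library is assumed to vary like the Exe libraries. Without Exe plasma replicate 1 it was -8.84 (adjusted p = 0.102) and without Exe plasma replicate 2 it was -3.95 (adjusted p = 0.300).

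miR-30e-5p had 3 and 1 reads in the Exe plasma libraries, against 663 and 30 reads in the Sed plasma libraries. It passed the filter only through the Sed libraries, and those differed widely from each other. The log2 fold change was -8.38 ± 2.96 (edgeR adjusted p = 0.115), and with no filter it was -8.20 (adjusted p = 0.270). Without Sed plasma replicate 1 it was -3.81 (adjusted p = 0.494). miR-30e-5p was called in 3 of 12 alternatives, among them DESeq2 (-8.58, adjusted p = 0.000196) and edgeR with a mean of 50 counts required. These calls rest on the same high Sed reads and are not read as support.

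The other tested arms had log2 fold changes above 0. miR-30c-5p had 255 and 477 reads in the Exe plasma libraries, against 18 and 49 reads in the Sed plasma libraries, with no overlap and a log2 fold change of 3.02 ± 1.83 (edgeR adjusted p = 0.297). miR-30a-3p had 223 and 404 reads in the Exe plasma libraries, against 13 and 25 reads in the Sed plasma libraries, with no overlap and a log2 fold change of 3.53 ± 1.91 (edgeR adjusted p = 0.259, DESeq2 adjusted p = 0.0371). miR-30a-5p had 16 and 929 reads in the Exe plasma libraries, against 37 and 63 reads in the Sed plasma libraries, so its Exe libraries enclosed both Sed libraries (2.68 ± 2.26, edgeR adjusted p = 0.460). Without Exe plasma replicate 2 it was -1.55.

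**Figure D5:**
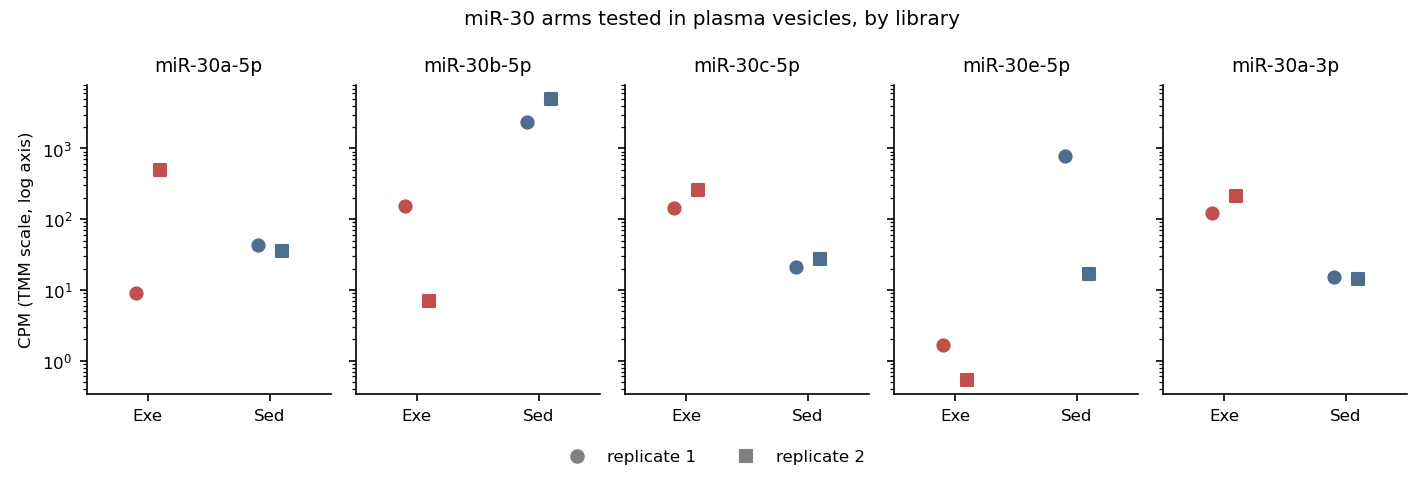
CPM (TMM scale, log axis) of the 5 arms tested in plasma vesicles, 1 point per library, with Exe left of Sed. miR-30b-5p and miR-30e-5p lie lower in both Exe libraries, miR-30c-5p and miR-30a-3p lie higher in both, and the Exe libraries of miR-30a-5p lie on either side of the Sed libraries.

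The rare arms in plasma were near the detection limit. miR-30e-3p had 2 and 1 reads in the Exe plasma libraries, against 0 and 9 reads in the Sed plasma libraries. miR-30c-1-3p had 0 reads in both Exe plasma libraries and 0 and 1 reads in the Sed plasma libraries, and miR-30c-2-3p had 2 and 0 reads in Exe and 0 in both Sed plasma libraries. No fold is given for the last 2. The 5p arms together took 0.0458 and 0.0804% of miRNA reads in the Exe plasma libraries, against 0.204 and 0.506% in the Sed plasma libraries. miR-30b-5p made up 50.5 and 0.915% of 5p reads in the Exe plasma libraries, against 73.8 and 98.4% in the Sed plasma libraries. It was the leading 5p arm in each plasma library except Exe replicate 2, where miR-30a-5p held 65.4%. The summed shares of red cell miRNAs, mostly miR-451a, and of leukocyte miRNAs separated these groups, at the values given above. So did the summed share of 6 epithelial miRNAs (miR-200a-3p, miR-200b-3p, miR-200c-3p, miR-141-3p, miR-205-5p and miR-203-3p). They took 0.00273 to 0.0314% of reads in Exe plasma vesicles and 0.0795 to 0.102% in Sed plasma vesicles. Among the 5 tested, miR-200b-3p went the other way (log2 fold change 2.55, with overlap). The others were lower in both Exe libraries, between -11.4 (miR-205-5p) and -3.68 (miR-200a-3p). The brown fat miRNAs listed in plasma, 4 of the 5, took 0.0265 to 0.149% in Exe plasma vesicles and 0.157 to 0.501% in Sed plasma vesicles. The part of these cell type markers in the result was not tested.

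The exercise effect was compared between sources in a joint fit of all 4 groups, over 234 miRNAs that passed the filter. Of the 8 arms, 3 differed (29.1% of all miRNAs tested did), 2 with a higher effect in BAT (16.7%) and 1 with a lower effect (12.4%). The BAT effect minus the plasma effect was 7.29 ± 1.78 for miR-30e-5p (adjusted p = 0.0144), 6.27 ± 1.63 for miR-30b-5p (adjusted p = 0.0190) and -3.13 ± 1.05 for miR-30a-3p (adjusted p = 0.0468), on the log2 scale. miR-30e-5p fell in both sources, by -0.94 in BAT vesicles, so its positive value means a smaller fall there. It passed in all 13 alternatives run, but its plasma effect rests on 3 and 1 reads in Exe and 663 and 30 in Sed. The alternatives reuse those reads, so passing in them is not read as support. Without Sed plasma replicate 1 the value of miR-30e-5p was 3.57. The call of miR-30b-5p ended without Sed BAT replicate 1 (5.88) or without Sed plasma replicate 2 (5.04). Without Exe plasma replicate 1 its value was 10.5. That of miR-30a-3p ended with upper-quartile scaling (-2.20) and without any single BAT library. Vesicle source, deposited table and possible sequencing batches coincide, so they cannot be told apart in any contrast between BAT and plasma.

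BAT was set against plasma in the same joint fit, and the Exe and Sed contrasts use different libraries but share 1 estimate of spread. In Exe, 6 of the 8 arms were called higher in BAT (41.0% of all miRNAs were, and 66.7% were called in either direction). In Sed 6 were also called higher (22.2%, and 42.3% in either direction). In each case 3 of these calls belong to arms rare in plasma that passed the filter only through BAT libraries, miR-30c-1-3p, miR-30c-2-3p and miR-30e-3p. These are described below by reads alone. miR-30a-5p and miR-30e-5p met the filter's count cut-off in only 1 plasma library each, too few for entry, so they also entered through BAT libraries. That entry favours their calls, miR-30e-5p in Exe and miR-30a-5p in Sed, and nothing is read from them. Of the other 5 arms, miR-30b-5p (4.50 ± 1.29, adjusted p = 0.0115), miR-30c-5p (3.50 ± 0.78, adjusted p = 0.0034) and miR-30e-5p (7.55 ± 1.60, adjusted p = 0.00296) were higher in Exe BAT than in Exe plasma vesicles. In Sed, miR-30a-5p (4.33 ± 1.25, adjusted p = 0.0177), miR-30c-5p (5.08 ± 0.85, adjusted p = 0.00115) and miR-30a-3p (2.28 ± 0.80, adjusted p = 0.0383) were. In Exe, miR-30a-5p (1.73 ± 1.09, adjusted p = 0.179) and miR-30a-3p (-0.85 ± 0.71, adjusted p = 0.301) did not pass. Without Exe plasma replicate 2, miR-30a-5p passed at 6.13, it passed with library size alone at 3.04 (adjusted p = 0.0431), and without Exe plasma replicate 1 it was 0.81. Without Exe plasma replicate 1, miR-30b-5p was 8.80. In Sed, miR-30e-5p (0.26 ± 1.09, adjusted p = 0.842) did not pass, and its value ranged from -0.49 to 4.11 when a library was left out. Of the 5, miR-30c-5p alone passed in both, and it passed without any single library. In Sed the call of miR-30a-5p ended without either Sed plasma library (4.16 and 4.78), and that of miR-30a-3p ended without any BAT library other than Exe 3 or without Sed plasma replicate 1 (adjusted p between 0.0504 and 0.0780). miR-30b-5p was the sole arm with a log2 difference below 0 in Sed (-1.77 ± 1.04, adjusted p = 0.196), and scaling by library size alone made it 0.92. That scaling moved the median of all miRNAs by 2.62 in Sed and 1.47 in Exe, and the same 6 arms passed under it in Sed, and with 1 more in Exe.

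For the rare arms the reads in all libraries of a group were compared on the TMM scale of the joint fit, and again as shares of miRNA reads, which gave larger values. In Exe, miR-30e-3p had 182 reads in BAT and 3 in plasma vesicles, a ratio of 154 (95% counting interval 51.8 to 752), or 403 per miRNA read. miR-30c-2-3p had 64 reads in Exe BAT and 2 in Exe plasma vesicles, a ratio of 81.1 (21.6 to 684), or 213 per miRNA read. miR-30c-1-3p had 55 reads in Exe BAT and 0 in Exe plasma vesicles, at least 46.5-fold higher taking 3 counts over all libraries of the group as the floor, or at least 122-fold per miRNA read.

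In Sed, miR-30e-3p had 128 reads in BAT and 9 in plasma vesicles. miR-30c-2-3p had 29 reads in Sed BAT and 0 in Sed plasma vesicles, at least 12.8-fold higher, or at least 77.9-fold per miRNA read. miR-30c-1-3p had 13 reads in Sed BAT and 1 in Sed plasma vesicles, a ratio of 17.2 (2.58 to 730), or 105 per miRNA read. These intervals and floors cover counting error only.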

How the data were processed

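Read counts per mature miRNA were used as deposited by the authors, in 1 table per vesicle source. The BAT table also gives RPM as deposited by the authors, each of which is the read count scaled by 1 total per library, far above the miRNA reads. A second whole number in the plasma table, of unstated making, served only as an alternative. Bowtie 0.12.2, mm8 and mm9 stand in the submitters' processing notes without a role; the sources used here do not give the counting program or its filters. Counts were tested with R 4.3.3 and edgeR 4.0.16 (TMM, filterByExpr, robust quasi-likelihood test, Benjamini-Hochberg, threshold 0.05), with the SE taken as the log2 fold change over the root of F. Exact permutation tests used scipy 1.17.1. DESeq2 1.42.0 and limma 3.58.1 were alternatives, with other scalings, filters, a replicate block and leaving out each library. The edgeR test was also run on data simulated with the spread and library sizes estimated from these libraries. That cannot show how it behaves with outlying replicates. Summing the near-identical arms and giving ratios of rare arms on a second scale were chosen after seeing the data. All 8 arms were named; the members and lists were chosen with earlier results of these data known. Sequences are RefSeq's.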

Additional observations from a re-analysis of the deposited data

Results flagged for a closer look

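For 3 arms the exercise effect (log2 of Exe over Sed) differed between BAT and plasma vesicles by the interaction term of edgeR's joint fit. The BAT effect minus the plasma effect was 7.29 for miR-30e-5p and 6.27 for miR-30b-5p, each lower in both Exe plasma libraries. In BAT vesicles the effect was -0.94 for miR-30e-5p, a smaller fall, and 0.55 for miR-30b-5p. The difference was -3.13 for miR-30a-3p, which was higher in both Exe plasma libraries and overlapped in BAT. The plasma effects of these arms did not pass edgeR's threshold on their own, and their plasma libraries hold as few as 1, 13 and 13 reads.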

How the results depend on the processing

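The number of arms called in BAT vesicles was 2, against 0 with a mean of at least 50 counts, 1 with the replicate number as a block and 0 to 3 when a library was left out (0 without Exe replicate 2, 1 without Exe 1, Exe 3 or Sed 3). In plasma vesicles it was 0, against 3 with DESeq2, 1 with no filter, 2 where a mean of 50 counts was required, and 0 to 2 when a library was left out (1 without Sed replicate 1, 2 without Sed 2). Leaving out a library gave 1 to 4 arms for the difference of effects (1 without Sed BAT replicate 1) and 3 to 7 for BAT against plasma in Sed (3 without Sed BAT replicate 3). The replicate numbers did not pair the libraries (correlations of deviations between -0.143 and 0.0185); with the block, miR-30c-1-3p was 1.90 (adjusted p = 0.0591).

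Directions turned for the results that follow, and the cause was not tested. In BAT vesicles miR-30a-3p was 0.046 with upper-quartile factors, 0.13 with the totals implied by RPM, 0.16 summed with miR-30e-3p and -0.28 to 0.19 when a library was left out. In plasma vesicles miR-30a-5p was -0.76 summed with miR-30e-5p and -1.55 to 3.82 when a library was left out. For the difference of effects the ranges were -3.54 to 1.68 for miR-30a-5p, -1.65 to 1.13 for miR-30c-2-3p and -2.39 to 3.53 for miR-30e-3p. For BAT against plasma in Sed, miR-30b-5p was 0.92 with library size alone and miR-30e-5p ranged from -0.49 to 4.11. In Exe, miR-30a-3p was 0.27 with upper-quartile factors and 0.59 with library size alone. The summed 5p share differed by -0.0453 to 0.623 points, the summed 3p share by -0.000694 to 0.0328 points, and the miR-30c arm ratio by -0.31 to 0.80. Over single arms, 265 leave-one-out values kept direction and side of the threshold, 24 lost the call, 11 gained it and 8 turned; under other alternatives the numbers were 154, 6, 12 and 7. Depth limits the 3p arms most: in BAT vesicles miR-30c-1-3p rests on 3 to 27 reads per library.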
